A study of Mus musculus with 16 samples.

Results

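The Trim30 gene cluster is a group of 4 neighbouring mouse genes, Trim30a, Trim30b, Trim30c and Trim30d, on chromosome 7. It was followed across 16 exon arrays, 4 of normal mouse B cells and 12 of B lymphoma cells. An array probe set summarised to 1 value is called a transcript cluster here. A transcript cluster was taken for a gene when that gene was its single platform symbol, and 2 of the 14996 single-symbol transcript clusters belonged to these genes, 1 to Trim30a and 1 to Trim30b. Trim30d appeared only in a transcript cluster that was also listed under Ccnyl1, so that its value could not be given to either gene. Trim30c was the symbol of no transcript cluster in the annotation used here, so only its promoter is described.

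The arrays fell into 4 groups. Normal B cells came from the spleen of p53(-/-) mice, called p53-null (n = 2), and of p53(246/-) mice, called p53-246 (n = 2). Myc-induced B lymphoma cells came from lymph nodes of p53(-/-) mice (n = 6) and p53(246/-) mice (n = 6). All 16 samples were from a hybrid C57BL6/129 background, and each lacked 1 p53 allele or both. The cells were enriched by magnetic depletion of other cells. The sources used here do not give the nature of the 246 allele or the promoter that drove Myc. The labels do not say that samples of a group came from separate animals, so p-values measure only the spread between these samples, which may be technical. In 3 arrays the values stood apart: normal p53-246 sample 2 at the Trim30 locus and a few other genes, and normal p53-null sample 1 and lymphoma p53-246 sample 6 by a narrow spread over all transcript clusters (SD 1.57 and 1.56, against 1.69 to 1.94 elsewhere). Normal against lymphoma is also spleen against lymph node, and the disease and the tissue cannot be told apart.

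TRIM proteins combine a RING domain, which confers ubiquitin ligase activity, with B-box and coiled-coil domains. In mouse, Trim30a is induced by interferon and by NF-kappaB, promotes the degradation of TAB2 and TAB3, and so dampens Toll-like receptor signalling through TRAF6; it has also been described as a brake on the NLRP3 inflammasome and on STING. The genes arose by duplication in rodents and sit beside other duplicated Trim genes (Trim5, Trim12a, Trim12c and Trim34a), and probes for close copies can take up each other's signal, so the assignment of signal to single copies is uncertain.

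The promoters of the Trim30 genes are shown as a description, and whether they bear on the array values was not tested. Each runs from 250 bases before to 50 bases after the gene start (RefSeq, GRCm38.p6, minus strand, 5′ to 3′). Capitals mark a match to the interferon response element GAAANNGAAA, searched on both strands and here read from the other strand. The windows are chr7:104465144-104465443 for the first listed start of Trim30a, chr7:104358597-104358896 for Trim30b, chr7:104400729-104401028 for Trim30c and chr7:104507800-104508099 for Trim30d.
Trim30a: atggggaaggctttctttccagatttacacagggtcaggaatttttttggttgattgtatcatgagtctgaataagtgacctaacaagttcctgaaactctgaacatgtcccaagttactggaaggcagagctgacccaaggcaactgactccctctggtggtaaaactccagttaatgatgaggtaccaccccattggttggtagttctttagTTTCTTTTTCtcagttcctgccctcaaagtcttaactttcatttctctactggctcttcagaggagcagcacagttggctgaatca
Trim30b: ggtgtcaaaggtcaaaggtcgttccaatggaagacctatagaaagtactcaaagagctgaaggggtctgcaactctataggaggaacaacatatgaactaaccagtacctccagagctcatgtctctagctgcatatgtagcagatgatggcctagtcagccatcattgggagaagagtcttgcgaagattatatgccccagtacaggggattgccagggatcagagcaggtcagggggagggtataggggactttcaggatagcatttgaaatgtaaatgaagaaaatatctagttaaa
Trim30c: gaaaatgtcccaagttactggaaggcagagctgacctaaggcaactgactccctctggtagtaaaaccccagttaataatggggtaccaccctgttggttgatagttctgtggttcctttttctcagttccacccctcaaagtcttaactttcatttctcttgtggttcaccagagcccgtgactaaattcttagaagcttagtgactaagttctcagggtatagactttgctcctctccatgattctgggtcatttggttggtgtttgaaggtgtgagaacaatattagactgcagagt
Trim30d: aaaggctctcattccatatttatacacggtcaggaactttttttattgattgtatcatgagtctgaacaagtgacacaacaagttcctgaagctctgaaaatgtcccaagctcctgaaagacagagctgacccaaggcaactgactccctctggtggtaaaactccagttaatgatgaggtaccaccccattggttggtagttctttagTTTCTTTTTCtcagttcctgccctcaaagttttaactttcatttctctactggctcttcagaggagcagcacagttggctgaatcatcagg

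The Trim30a window held the element at bases 215 to 224, so that it began 36 bases before the gene start. The Trim30d window held the same 10 letters at bases 210 to 219. A second listed start of Trim30a (chr7:104446076-104446375) also held them. No match lay in the windows of Trim30b and Trim30c. In the Trim30c window the stretch aligned to the element of Trim30a differed by the substitution T3C, counted from 1 at the left end of the capitals as printed for Trim30a. GAAANNGAAA was present in 3.44% of 32851 mouse promoter windows of this length. The gamma activated site TTCNNNGAA (8.3% of all windows) was found only in the Trim30c window among these 5, and the E-box CACGTG, a sequence that Myc can bind (7.15% of all windows), in none. The first Trim30a window and the Trim30d window shared an unbroken run of 118 identical bases, and 93.6% of their 295 aligned bases were identical. The longest identical run of the Trim30b window with any of the others was 9 bases. These matches are descriptions of the letters and say nothing on binding.

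Trim30a was above background in every sample, by the least in lymphoma p53-246 sample 6 (6.56 against that array's 5.79), and was lower in all 12 lymphoma samples than in all 4 normal samples. In normal p53-null cells its log2 intensity was 11.31 and 11.17. In normal p53-246 cells it was 11.49 and 10.58. In p53-null lymphomas it ran from 6.34 over a median of 8.78 to 9.67. The normal and lymphoma groups did not overlap, and the 2 lymphoma genotypes covered much the same range. The share of all transcript clusters with no such overlap was not counted. The lack of overlap, here and for Trim30b and Trim34a below, only describes the values. In p53-246 lymphomas it ran from 6.56 over a median of 8.78 to 9.17. The background of each array was set as the 95th percentile of 800 transcript clusters for odorant and vomeronasal receptors, genes that B cells are not known to use, and lay between 4.93 and 5.89. The mean fell from 11.14 ± 0.39 (SD, n = 4) in normal samples to 8.33 ± 1.07 (SD, n = 12) in lymphomas. Averaged over the genotypes with equal weight, the log2 difference was -2.80 (SE 0.51), or 6.98-fold lower. It was -2.91 (SE 0.73) in p53-null and -2.70 (SE 0.73) in p53-246 cells, the latter -3.15 without normal p53-246 sample 2.

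Trim30b was over background in the 4 normal samples and in none of the 12 lymphomas. In normal p53-null cells its log2 intensity was 9.41 and 9.52. In normal p53-246 cells it was 9.71 in sample 1 and 6.39 in sample 2. Thus 3 normal samples lay within a narrow band and 1 lay far below it, though still above every lymphoma. In p53-null lymphomas the values ran from 4.31 over a median of 4.47 to 4.68, and in p53-246 lymphomas from 4.18 over a median of 4.84 to 4.96. Since the lymphoma values are near background, the difference is a bound. Against the mean background level of the lymphoma arrays, Trim30b was at least 20.1-fold lower in p53-null and at least 6.94-fold lower in p53-246 lymphomas than in normal cells of the same genotype, and the second bound became 21.98-fold when normal p53-246 sample 2 was left out. The measured log2 differences were -5.00 (SE 0.50) in p53-null and -3.34 (SE 0.50) in p53-246 cells. The SEs of Trim30b, here and below, pool the spread of all groups. That spread was by far the widest in normal p53-246 cells (SD 2.35, n = 2), through sample 2.

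Trim30a and Trim30b were selected on earlier results of these same arrays, Trim30a for its difference between lymphoma and normal cells and Trim30b for that difference in p53-null cells. These differences are therefore given as descriptions, with no test. Across all 14996 single-symbol transcript clusters, limma's moderated test called 17.9% lower and 20.3% higher in lymphomas (Benjamini-Hochberg adjusted p under 0.05). Centring the arrays on their medians moved the median difference over all transcript clusters from -0.09 to 0.04 and the shares to 11.9% lower and 24.1% higher, while the differences of Trim30a and Trim30b became -2.67 and -4.04. In bulk samples, fewer cells expressing a gene and less RNA per cell cannot be told apart.

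**Figure D1:**
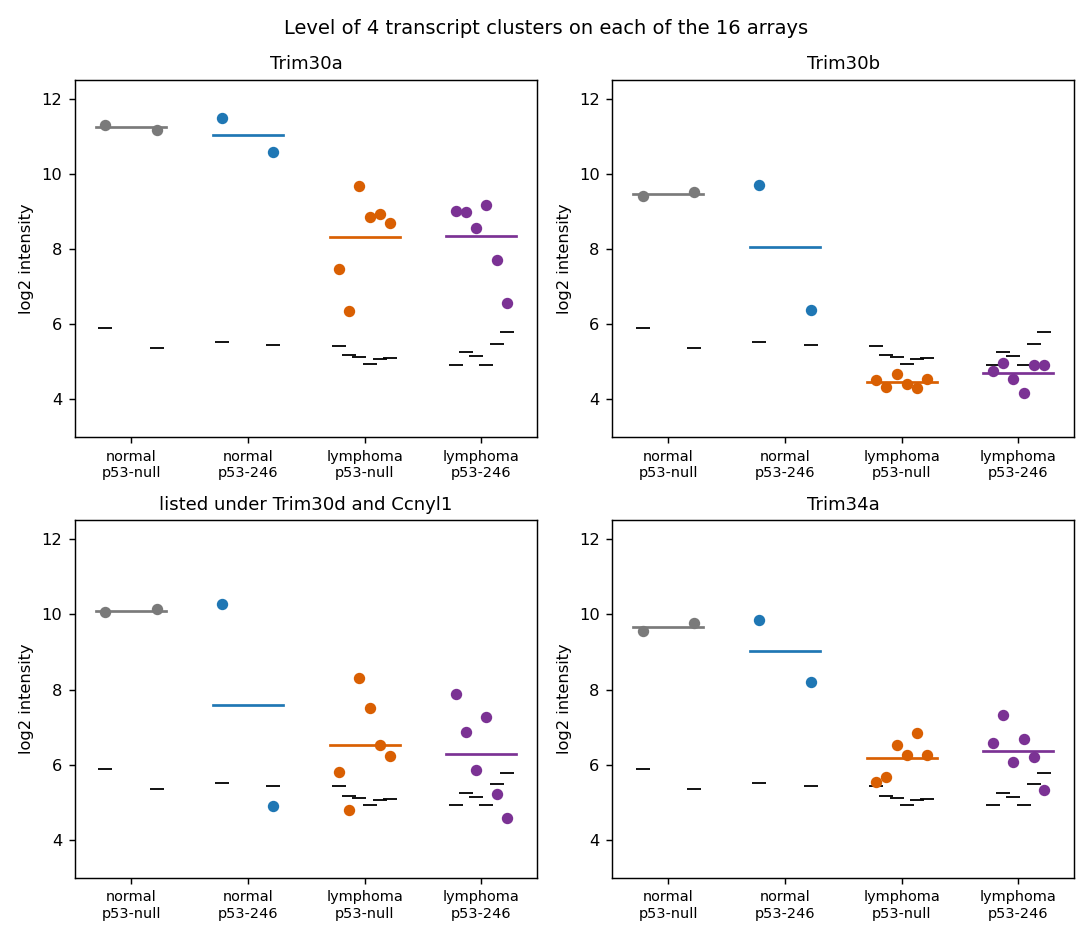
Log2 intensity (vertical axis) of the transcript clusters for Trim30a, Trim30b, Trim30d with Ccnyl1, and Trim34a on each of the 16 arrays by group; points are arrays, coloured lines are group means and black ticks are the background level of each array. Trim30b lies under background in all 12 lymphomas, and normal p53-246 sample 2 lies below the other 3 normal samples in all 4 panels.

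Between the lymphoma genotypes, Trim30a could be tested, since it was selected on the mean over both genotypes. Trim30b was selected on values of p53-null cells, which also enter each genotype comparison, so its genotype differences are given with no test. No Trim30a difference was detected. Trim30a averaged 8.33 ± 1.21 (SD, n = 6) in p53-null and 8.33 ± 1.02 (SD, n = 6) in p53-246 lymphomas, a log2 difference of 0.006 (SE 0.51, limma adjusted p = 0.999, two-sided exact permutation p = 0.9935). Trim30b averaged 4.47 ± 0.14 (SD, n = 6) and 4.71 ± 0.31 (SD, n = 6), a log2 difference of 0.24 between values near background (SE 0.36). That SE is widened by the spread of the normal p53-246 cells and is not that of the lymphomas alone. The SE of Trim30a limits the size of difference that 6 arrays a group can show. Over all transcript clusters, limma called 0 (0%) between the lymphoma genotypes, with 448 at an unadjusted p under 0.05.

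Between the normal genotypes the Trim30a difference was -0.20 (SE 0.89, limma adjusted p = 0.999). The SEs of Trim30a, here and above, pool the spread of all groups. Its SD was 1.21 and 1.02 in the lymphoma groups (n = 6 each). In normal cells it was 0.10 in p53-null and 0.64 in p53-246 (n = 2 each). This test therefore does not measure the spread of normal cells alone. The Trim30b difference was -1.42 (SE 0.62), again with no test. It rested on p53-246 sample 2: without that array the difference was 0.25, and with it as the lone p53-246 sample it was -3.08. Over all transcript clusters limma called 0 (0%), with 520 at an unadjusted p under 0.05. The difference of the lymphoma effect between genotypes, which holds the values that selected Trim30b, was 1.66 (SE 0.71) for Trim30b and 0.21 (SE 1.03) for Trim30a, and for Trim30b it was -0.0008 without that sample.

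Normal p53-246 sample 2 was examined further because Trim30b departed so far in it. Relative to the mean of the other 3 normal samples, Trim30b was lower by a log2 difference of -3.16, the fifth lowest of 14996 transcript clusters, and Trim30a by -0.74. The array itself was not narrow: the SD over its transcript clusters was 1.73, within the 1.57 to 1.75 of the other normal arrays. Named after their values were seen, 5 transcript clusters were at least 8-fold lower in this sample. They were H2-Ea (-6.84), a class II antigen presentation gene, the Y-linked Eif2s3y (-6.22) and Kdm5d (-4.12), Ctse (-3.86), an aspartic protease, and Trim30b. A single one, Apobec3, a cytidine deaminase that restricts retroviruses, was at least 8-fold higher (3.30). The other 3 normal samples had no transcript cluster at least 8-fold lower than the rest and between 0 and 5 at least 8-fold higher. Genes lower in this sample also ranged widely among the lymphomas. There H2-Ea ran from 3.76 to 11.18, Eif2s3y from 3.33 to 9.91, Kdm5d from 3.84 to 7.92 and Ctse from 7.66 to 10.93. In normal p53-246 sample 2 the Y-linked Eif2s3y (3.51) and Kdm5d (4.12) lay below the background of the array, 5.43. Mature B cell markers had a mean log2 level of 9.79 in this sample against 9.89 to 10.14 in the other normal samples, macrophage markers 6.47 against 5.86 to 6.16, and platelet markers 6.83 against 5.84 to 6.20. The part of cell makeup, of sex or of strain background in these values was not tested.

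Within 10 Mb of the start of Trim30a, only the 77 genes over background in the mean of a normal group were taken. Their median difference from the other normal samples was 0.04. Of these genes, 4 were at least 2-fold lower: Trim30b, Trim34a (-1.51, 0.165 Mb from Trim30a), Gm4759 (-2.03, 2.01 Mb away) and the olfactory receptor gene Olfr586 (-1.003). A single gene, Mrpl48, was at least 2-fold higher (1.02). The 2-fold counts over all transcript clusters were not taken. At 4-fold, 6 of all 14996 transcript clusters were lower in this sample, Trim30b and Gm4759 among them, and 4 were higher. The transcript cluster listed under Trim30d and Ccnyl1 had 4.92 in this sample against 10.05 to 10.27 in the other normal samples. A cluster listed under Trim12a, Trim5 and Trim12c had 4.82 against 9.86 to 10.44. Another cluster listed under the same 3 genes went the other way, with 8.74 against 7.09 to 7.63. Both values under 5 lie below the background of this array, 5.43. These shared transcript clusters were added after the data had been seen.

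**Figure D2:**
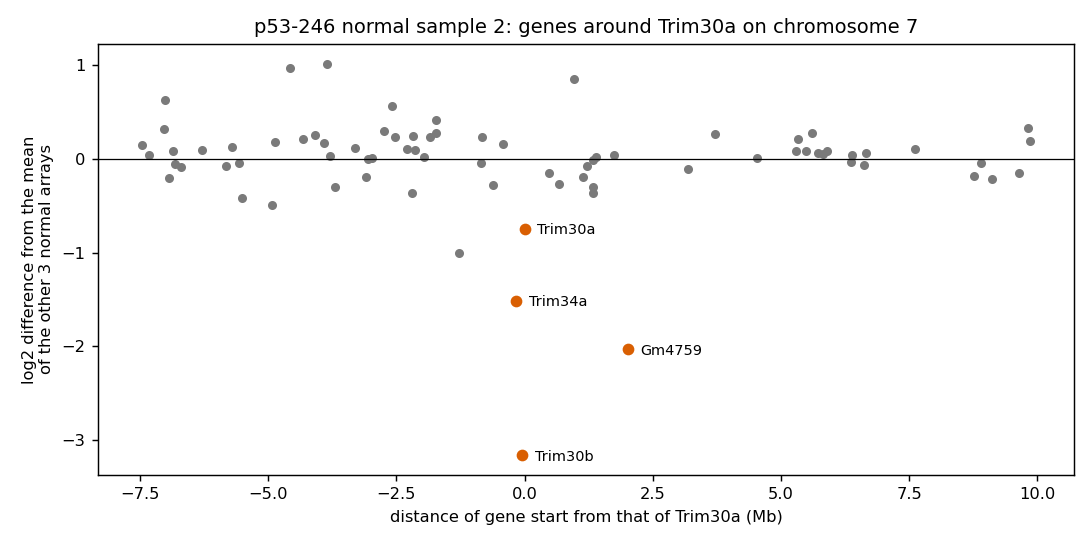
Difference of normal p53-246 sample 2 from the mean of the other 3 normal arrays (vertical axis, log2), by distance of gene starts from that of Trim30a (horizontal axis, Mb). Points are the 77 genes within 10 Mb of Trim30a whose mean was over background in a normal group. Trim30b (-3.16), Gm4759 (-2.03), Trim34a (-1.51) and Trim30a (-0.74) are named; most other points lie near 0.

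Among the lymphomas Trim30a varied more than nearly all other transcript clusters. The highest lymphoma value was 10.1 times the lowest on the linear scale. Its SD within the lymphoma groups was 1.12, and 28 of the 7324 transcript clusters over background in lymphomas had a larger one (median 0.27). The lowest values were those of p53-null sample 2 (6.34), p53-246 sample 6 (6.56) and p53-null sample 1 (7.47), and the highest that of p53-null sample 3 (9.67). After quantile normalization the lymphomas still ran from 6.34 to 9.62. The lymphoma p53-246 sample 6 array was narrow (SD over its transcript clusters 1.56, against 1.77 to 1.94 in the other lymphomas). Trim30a correlated with that array SD (r = 0.72 over 12 lymphomas, r = 0.58 without this array), and the part of array spread in the Trim30a values was not tested. Trim30b had an SD of 0.24 within the lymphoma groups, at background level.

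The transcript cluster listed under Trim30d and Ccnyl1 followed Trim30a through the lymphomas. It ran from 4.81 over a median of 6.38 to 8.30 in p53-null and from 4.59 over a median of 6.37 to 7.90 in p53-246 lymphomas. The samples low for Trim30a were low here too: p53-null sample 2 had 4.81 and p53-246 sample 6 had 4.59, both under background. As a description, deviations from the group means correlated with those of Trim30a at r = 0.91 over 12 lymphomas (0.91 in each genotype, n = 6). Trim30a and Trim30b had r = -0.13, with Trim30b at background. All points share their array, and the Trim30a and Trim30d genes may share probe signal. Normal p53-246 sample 2 departed from this relation, with a Trim30a value of 10.58 and a shared-cluster value of 4.92. Against normal cells the shared cluster differed by -3.56 (SE 1.15) in p53-null and -1.30 (SE 1.15) in p53-246 cells, and by -3.98 in p53-246 cells without that sample.

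**Figure D3:**
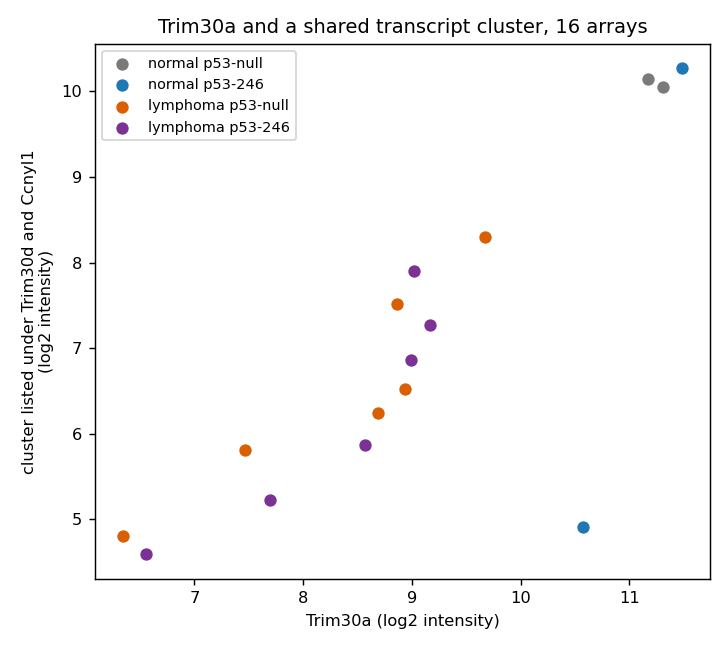
Trim30a (horizontal axis, log2 intensity) against the transcript cluster listed under Trim30d and Ccnyl1 (vertical axis, log2 intensity); each point is 1 of the 16 arrays, coloured by group. The 12 lymphomas rise together, and normal p53-246 sample 2 stands apart at 10.58 and 4.92.

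Trim34a, an adjacent member of the same TRIM group, was also lower in every lymphoma than in every normal sample. Its log2 intensity was 9.57 and 9.78 in normal p53-null cells and 9.84 and 8.22 in normal p53-246 cells. The lymphomas ran from 5.55 over a median of 6.25 to 6.84 in p53-null and from 5.32 over a median of 6.41 to 7.32 in p53-246 cells. The log2 difference between lymphoma and normal cells was -3.08 for Trim34a (8.43-fold lower, SE 0.32, limma adjusted p = 4.84e-07). No genotype difference was detected in lymphomas (0.19, limma adjusted p = 0.994) or in normal cells (-0.65, limma adjusted p = 0.999). Its deviations followed those of Trim30a over the 12 lymphomas at r = 0.82. Of the 10 other Trim genes listed at or near the locus, 4 had a transcript cluster of their own and 3 of these fell: Trim34a, Trim21 (-1.18, limma adjusted p = 0.00171), an intracellular antibody receptor, and Trim68 (-0.67, limma adjusted p = 0.000375). Trim3 lay near background (-0.17, limma adjusted p = 0.226).

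Across the rest of the Trim family the direction was mixed. Of 42 other Trim genes, 12 fell and 6 rose, or 28.6% and 14.3% beside 17.9% and 20.3% over all transcript clusters. Their median log2 difference was -0.17 beside -0.09. Over background in some group were 23 of the 42, and the falls of Trim36, Trim65 and Trim8 lay near background in both normal and lymphoma cells. The falls included Trim34a, Trim26 (-1.37, limma adjusted p = 1.9e-06) and Trim7, which was near background in lymphomas and at least 3.95-fold lower there. That bound used the mean background level over both lymphoma genotypes, against which Trim30b was at least 11.8-fold lower. Trim37 (2.16, limma adjusted p = 9.39e-11), Trim32 (1.57, limma adjusted p = 3.52e-08) and Trim28 (1.34, limma adjusted p = 1.8e-07), the corepressor of KRAB zinc finger proteins, were the largest rises.

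**Figure D4:**
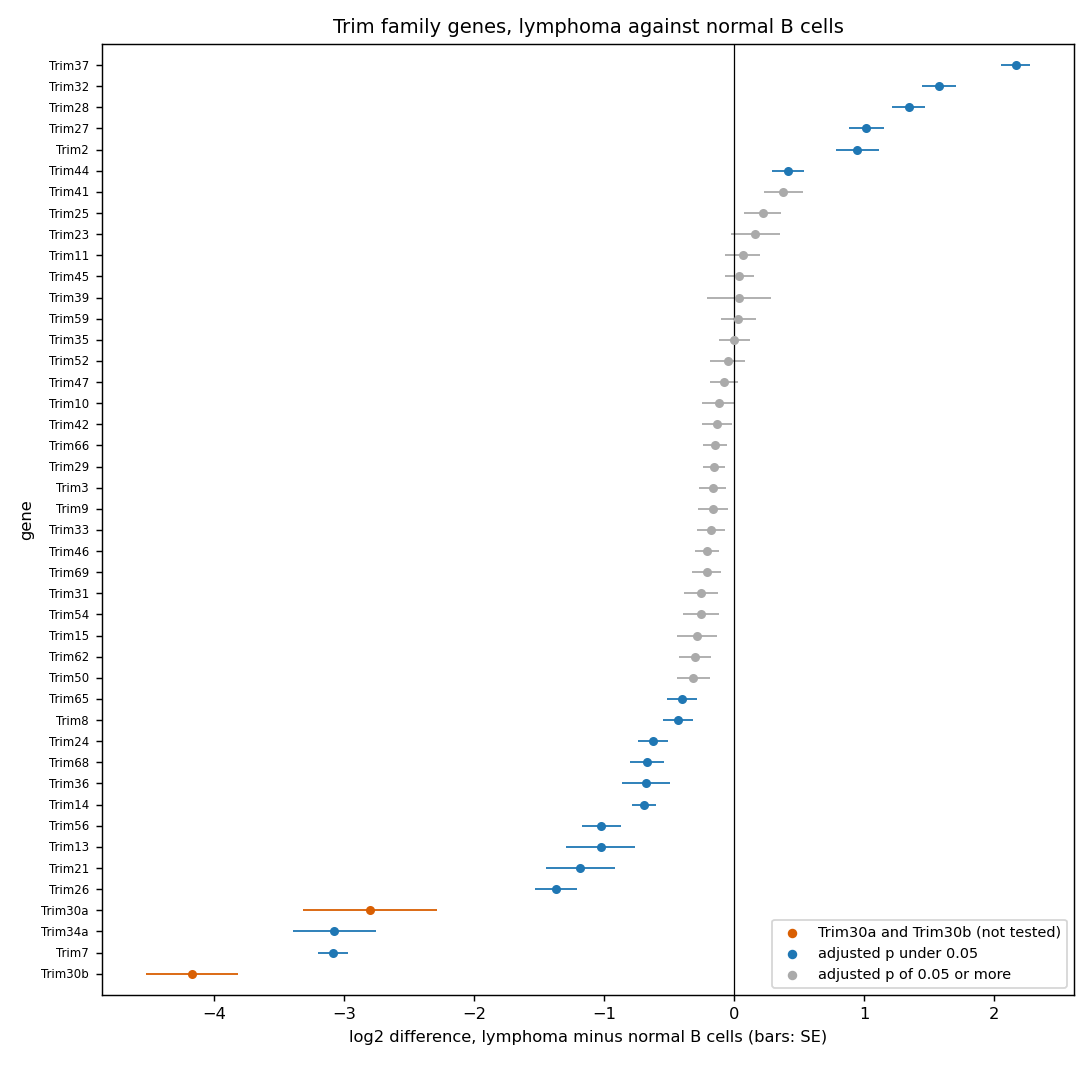
Log2 difference between lymphoma and normal B cells (horizontal axis; bars are SE) for Trim30a, Trim30b and the 42 other measured Trim genes (vertical axis). Trim30b (-4.17) and Trim30a (-2.80) lie at the low end beside Trim7 and Trim34a, Trim30b and Trim7 are near background in lymphomas, and Trim37 (2.16) is highest.

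Interferon-stimulated genes, the class to which Trim30a belongs, were lower in lymphomas as a group. Of 34 measured, 32 fell and none rose (31 and 1 after centring or quantile normalization), with a median log2 difference of -1.53 beside -0.09 over all transcript clusters, of which 17.9% were called lower; 29 of the 34 were over background in some group. Slfn2 (-3.57), a regulator of lymphocyte quiescence, Ifitm3 (-3.27), which restricts virus entry, and Zbp1, a sensor of Z-form nucleic acid that was near background in lymphomas and at least 5.74-fold lower there, were among them. The lymphoma mean of Slfn2, 5.18, lay under the mean lymphoma background level of 5.20, so its fall is a bound. Bst2 (0.26, limma adjusted p = 0.145) and Dtx3l (-0.37, limma adjusted p = 0.213) did not pass the test. Of 22 interferon receptors, kinases and factors, 16 fell and 1 rose (11 and 2 after centring). The falls included Jak2 (-3.13), the kinase of several cytokine receptors, Irf9 (-2.07) and Stat2 (-1.65), which form the factor that binds interferon response elements, and the rise was Ptpn11 (0.61). No gene of either list was called between genotypes, where all of the table held 0 calls.

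In the pathway that Trim30a is known to dampen, several receptors fell, and Traf6, Tab1 and Tab2 did not pass the test. Of 31 measured genes from Toll-like receptors to TRAF6, TAB and NF-kappaB, 16 fell and 2 rose, or 51.6% and 6.45% beside 17.9% and 20.3% over all transcript clusters, with a median of -0.75. Tlr7 (-5.13, limma adjusted p = 1.37e-09), the endosomal receptor of single-stranded RNA, and Tlr1 (-3.77) fell most among genes over background in both cell types, and Tlr3, near background in lymphomas, was at least 2.94-fold lower. The adaptor Tirap (1.01) and the kinase Map3k7 (0.51), which TAB proteins activate, rose. The known target of Trim30a, Tab2, differed by -0.20 (limma adjusted p = 0.2), Traf6 by -0.16 (limma adjusted p = 0.268) and Tab1, near background, by 0.22 (limma adjusted p = 0.133). These are RNA levels and cannot show the degradation of TAB2 protein. Tab3, the other target, had no single-symbol transcript cluster. Among 10 inflammasome genes 8 fell (80%) and none rose, among them Casp1 (-3.86), Casp4 (at least 13.4-fold lower) and Il18 (at least 3.43-fold lower), the last 2 near background in lymphomas; Nlrp3 was near background in both. Among 11 genes of cytosolic nucleic acid sensing 8 fell and 2 rose (5 and 2 after centring), or 72.7% and 18.2%, the latter close to the share over all transcript clusters. Sting1 fell by 0.60 on the log2 scale (limma adjusted p = 0.0109) and the DNA sensor Cgas rose by 1.22 from a level near background (limma adjusted p = 0.000376).

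Markers of cell types moved with the same contrast, in which 17.9% of all transcript clusters were called lower and 20.3% higher. Of 10 mature B cell markers 9 fell, with a median of -2.07, and their mean log2 level per array was 9.79 to 10.14 in normal samples and 6.88 to 7.75 in lymphomas. Of 15 macrophage and monocyte markers, cells in which Trim30a is also known to be active, 8 fell, and their mean level was 5.86 to 6.47 in normal samples and 4.65 to 5.73 in lymphomas. Of 11 neutrophil markers 7 rose, with a median of 1.71. Falls were also called for 3 of 7 dendritic cell, 6 of 8 natural killer cell and 6 of 6 platelet markers (4 natural killer cell and 4 platelet markers after centring or without normal p53-246 sample 2). Over background in some group were 9 of the macrophage and monocyte, 3 of the natural killer cell and 4 of the platelet markers. Among their falls, those of Fcgr1, Ncr1, Gzmb, Prf1, Itga2b and Gp9 lay near background in both normal and lymphoma cells. Calls were few for erythroid (1 fall of 5), stromal and endothelial (2 falls of 11), T cell (1 rise and 2 falls of 10) and plasma cell markers (2 rises and 2 falls of 7). Without normal p53-246 sample 2 the erythroid fall, the T cell rise and 1 plasma cell fall were not called. The part of these shifts in the values of the Trim30 genes and their pathway was not tested.

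Genes that resembled the Trim30 genes were ranked by Pearson's r of deviations from the group means over 16 arrays, among 5205 transcript clusters over background in some group with an SD of deviations of at least 0.2. Closest to Trim30a were Irgm1 (r = 0.87), an interferon-induced GTPase, Mmadhc (0.86), a gene of vitamin B12 handling, Trim21 (0.85), Rcn1 (0.85), a calcium-binding protein of the endoplasmic reticulum, and Aim2 (0.84), a DNA sensor of the inflammasome. By the values as they stand, Atf7ip (0.94), Trim26 (0.94) and Irgm1 (0.93) were closest. Over the 12 lymphomas, r with Trim30a was above 0 for 74.6% of 5204 transcript clusters, with a median of 0.34. The 29 interferon-stimulated genes among them had a median of 0.37. Closest to Trim30b were Alyref (0.68), Sfswap (0.64), Slamf9 (0.62), Oasl2 (0.62) and Olfr149 (0.60). Deviations of Trim30b were by far the widest in the 2 normal p53-246 arrays (SD 2.35), so these r rest largely on them. Within the 12 lymphomas, where Trim30b lay at background, these 5 had r of 0.17, 0.28, -0.01, 0.50 and 0.21. By the values as they stand, Oasl2 (0.95), Fos (0.94) and Zbp1 (0.94) were closest to Trim30b. Values as they stand also hold the difference between normal and lymphoma cells on which Trim30a and Trim30b were selected.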

How the data were processed

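Exon array values of 16 B cell and B lymphoma samples were used as deposited. The authors' table holds log2 values by all appearances; the base is not stated, and a natural log would put the highest intensity at 726214. Partek 6.5 and the build mm8 are named per the submitters' processing notes; the summarisation and normalization are not given in the sources used here. Of 23332 transcript clusters, 14996 had 1 platform symbol, 1019 several and 7317 none.

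limma 3.58.1 (R 4.3.3; lmFit and eBayes) was fitted with 1 mean for each of the 4 groups over all single-symbol transcript clusters, and p-values were adjusted by Benjamini-Hochberg over all of them (threshold 0.05). The fit was tested on simulated data. For single values in lymphomas, exact permutation tests of 6 against 6 samples were added; 2 against 2 samples allow no useful permutation test. The number of arrays limits the precision. Where a gene was near background in lymphomas, a bound was computed as the normal mean against the mean background level of the lymphoma arrays. The Trim30b genotype differences, planned as tests, are given as descriptions because its selection used p53-null values.

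Genes were named by rule: the Trim30 genes, their measured neighbours, the closest 5 by deviations and 3 by values, and up to 3 genes a list in each direction; exceptions are marked. The genes and lists were chosen with earlier results of these data known. Alternatives were median centring, quantile normalization, array weights, a background filter, 1 transcript cluster per gene, all transcript clusters, leaving out arrays, and a replicate block. Deviations of samples that shared a number had r = 0.065 in normal cells and -0.31 to 0.329 in lymphomas. With 2 normal samples a group, r is the same for both numbers by construction. These r were not set against those of other pairs, so they cannot exclude a pairing. The main fit took the numbers as no pairs. RefSeq promoter windows (GRCm38.p6) were matched by symbol for all 4 genes, with no conversion to the build of the arrays; no protein sequence was used here.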

Additional observations from a re-analysis of the deposited data

Results flagged for a closer look

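In 1 p53-null lymphoma, sample 1, a transcript cluster listed under Trim12a, Trim5 and Trim12c had a log2 intensity of 5.09, while the other 5 p53-null lymphomas ran from 6.92 to 7.72. The gap to the nearest sample, as a share of the range, exceeded Dixon's critical value for 6 samples. Such a test picks out about 1 group in 20 by chance.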

How the results depend on the processing

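The genotype values of Trim30a stayed short of the threshold under every alternative run, with adjusted p from 0.931 to 1 in lymphomas, where the difference ran from -0.39 (without p53-null sample 2) to 0.36 (without p53-246 sample 6). That of Trim30b ran from 0.19 to 0.35. Leaving out single arrays, the Trim30b difference between normal genotypes ran from -3.08 to 0.25, lymphoma against normal from -5.00 to -3.34, the same in p53-246 from -5.00 to -1.68, and the difference of these effects from -0.0008 to 3.32; the extremes came from the 2 normal p53-246 arrays. Calls between normal genotypes ran from 0 to 545, with 545 without normal p53-null sample 2 and 4 without normal p53-246 sample 1; calls for the difference of effects ran from 0 to 488 over the same arrays. Calls for lymphoma against normal ran from 2876 to 5723 in p53-null and from 2420 to 4542 in p53-246, against 4779 and 3763 with all arrays; the lowest came without normal p53-null sample 1 and without either normal p53-246 array (2420 and 2432), and array weights gave 3177 and 6231. With the replicate block the Trim30a lymphoma genotype value was 0.006, and no call on the Trim30 genes changed. Without normal p53-246 sample 2, and equally without the 2 narrow arrays (chosen after seeing the data), 31 interferon-stimulated genes fell, and 1 gene of nucleic acid sensing rose in place of 2. The cause of these shifts was not tested. Signals under background leave Trim30b in lymphomas unresolved.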
